A study of Mus musculus with 20 samples.

Results

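Kit, Gata2, Myb, Cd34, Spi1, Runx1, Erg, Fli1, Meis1 and Hoxa9 are genes of blood stem and progenitor cells, and their RNA was followed in mouse erythroid progenitors kept with or without erythropoietin (Epo). Probe sets annotated to 1 of these genes and to no other were taken, and the one with the highest mean per gene over the 20 arrays stood for that gene. All 10 genes were measured, with 24 probe sets between them, among 18193 genes on the arrays.

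The cells were CFU-E, colony-forming erythroid progenitors, from livers of E13.5 embryos of BALB/c mice, obtained by removing cells bound by antibodies to GR1, CD41, CD11b, CD14, B220, CD4, CD8 and Ter119, among others. There were 12 arrays of cells given Epo at 0.5 U/ml, hourly at 0 to 8 h and then at 14, 19 and 24 h, and 8 arrays of cells given none, hourly at 0 to 7 h. The labels differ on what came before: the design text has them freshly sorted and then starved for 1 h. The protocol adds a culture of 12 to 14 h in serum with 0.5 U/ml Epo, and which arrays had this culture is not settled. Each treatment and hour had 1 array, and nothing says that hours were separate cultures, so the p-values below rest on the spread between hours, which may be technical.

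KIT is the receptor for stem cell factor and carries erythroid progenitors through their early divisions, while the Epo receptor takes over at the CFU-E stage. GATA2 holds stem and progenitor programs and is displaced from shared sites by GATA1 as red cells form, an exchange known as the GATA switch. MYB keeps progenitors dividing, and its RNA is known to decline as erythroblasts mature.

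Values are log2 of the deposited probe set signal, so a difference of 1 is a factor of 2, and a difference between the series is always with Epo minus without. The series already stood apart at 0 h. There 9 of the 10 genes had lower values with Epo, the exception being Runx1, whose other probe sets lay on both sides of 0. The median difference was -0.72, against -0.01 over all genes, of which 51.6% were lower. Cd34 at -1.78, Kit at -1.40 and Gata2 at -1.15 were lower by at least 1, as were 0.632% of all genes. The other 0 h differences were -0.94 for Myb, -0.82 for Fli1, -0.62 for Spi1, -0.21 for Meis1, -0.18 for Erg, -0.11 for Hoxa9 and 0.33 for Runx1. With 1 array each at 0 h these differences have no replicate check, and each result at 1 to 7 h stands on top of them.

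Markers of other cells also differed between the series. The 12 granulocyte markers included 11 that were lower with Epo at 0 h, with a median of -0.50, and their summed signal was 379 to 669 with Epo at 0 to 7 h and 398 to 2040 without. Mpo, a granule enzyme of early myeloid cells, differed by -2.26 at 0 h and Prtn3, a granule protease, by -2.13. In the test at 1 to 7 h described below, these were the 2 granulocyte markers called lower, against 20.2% of all genes. There 1 of the 12 was higher, against 18.2% of all genes, and 9 did not pass, with a median of -0.05. Mpo fell by 0.50 ± 0.03 per hour without Epo (SE; limma adjusted p = 9.46e-06), in the same hours in which Cd34 and Myb fell there. The 10 hepatocyte markers were all higher with Epo at 0 h, with a median of 1.39 and sums of 7166 to 32663 with Epo and 5063 to 15751 without at 0 to 7 h. Cpa3, a mast cell protease also made by some progenitors, differed by -1.59 at 0 h. It was 2.70 to 3.18 with Epo at 0 to 7 h, and fell without Epo by 0.22 ± 0.04 per hour (adjusted p = 0.0012), to 2.71 at 7 h from 4.55 at 0 h, 1 of 2 mast cell markers of 8 that fell there. Mast cell markers had sums of 73.1 to 90.8 with Epo and 78.6 to 115 without, and all 8 averaged under 5. So did 7 of 12 granulocyte, 11 of 13 macrophage, 9 of 10 endothelial, 10 of 11 lymphoid and 6 of 10 megakaryocyte markers. Among erythroid genes Tfrc, the transferrin receptor, was brightest, with a mean of 13.05. The part that other cells had in the results below was not tested. In bulk RNA, fewer cells of a type and less RNA per cell cannot be told apart.

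Over the matched hours 1 to 7, 7 of the 10 genes were lower with Epo in limma's test with hour as a block, at an adjusted p under 0.05 over all genes. None was higher, also at an unadjusted p under 0.05. Across all genes 20.2% were called lower and 18.2% higher, and the median difference was -0.50 for the 10 genes and 0.03 for all genes. The 7 were Kit, Fli1, Cd34, Myb, Meis1, Runx1 and Erg. In 8 of the 10 genes all 7 pairs were lower with Epo, as in 15.2% of all genes, and in Kit, Fli1 and Erg all 7 arrays with Epo lay below all 7 without, as in 7.31% of all genes.

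**Figure D1:**
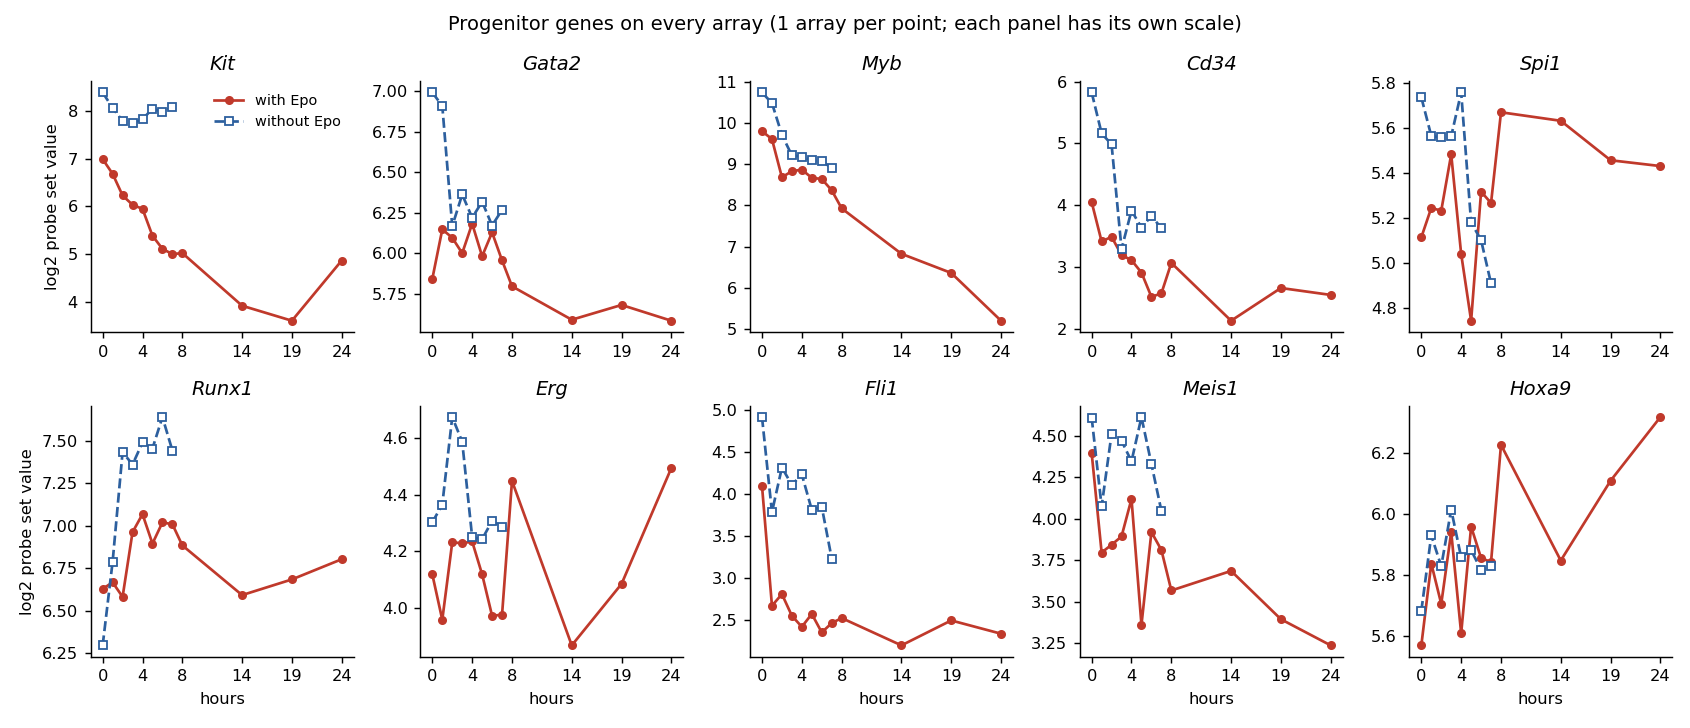
Log2 probe set value (y axis, own scale per panel) against hours (x axis) for the 10 genes, with 1 point per array, filled circles with Epo and open squares without. Kit stays near 8 without Epo and lies below 5 with Epo at 14 to 24 h, while Myb comes down in both series.

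When each series was set against its own 0 h array, the test found no difference in any of the 10 genes, with 0.0495% of all genes called lower and 0.0165% higher. Gata2 and Runx1 were the 2 genes with an unadjusted p under 0.05. The step rests on 1 pair of arrays at 0 h, and its standard errors of 0.22 to 0.58 are wide. Kit had -0.77 ± 0.58 (SE, limma adjusted p = 0.72), Runx1 -0.82 ± 0.29 (adjusted p = 0.58) and Gata2 0.87 ± 0.30 (adjusted p = 0.56). For Myb, Cd34, Spi1 and Hoxa9 the estimate was also above 0, at 0.37, 0.74, 0.44 and 0.05, so the series lay closer together at 1 to 7 h than at 0 h by value. Fli1, Meis1 and Erg had -0.54, -0.31 and -0.10.

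**Figure D2:**
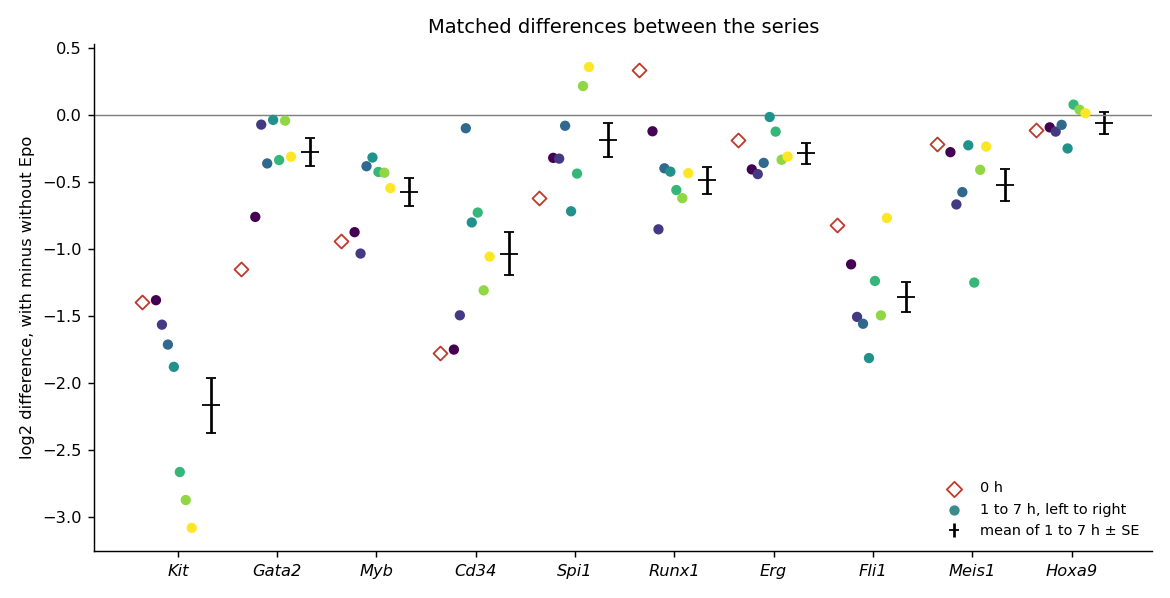
Log2 difference with minus without Epo at 0 h (open diamonds) and at 1 to 7 h (filled circles, left to right), with the mean of the 7 pairs and its SE. Kit moves away from its 0 h difference to -3.08 at 7 h, while Gata2, Myb and Cd34 lie mostly closer to 0 than at 0 h.

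Kit, the receptor tyrosine kinase, had the largest difference of the 10 genes. With Epo its values were 6.99, 6.68, 6.23, 6.03, 5.95, 5.38, 5.11 and 5.00 at 0 to 7 h, then 5.02 at 8 h, 3.92 at 14 h, 3.60 at 19 h and 4.86 at 24 h. Without Epo they were 8.39, 8.07, 7.79, 7.75, 7.83, 8.05, 7.98 and 8.08 at 0 to 7 h. Every array with Epo lay below every array without, 0 h included, and with Epo each of the first 7 hours was lower than the hour before.

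The mean matched difference of Kit at 1 to 7 h was -2.17 ± 0.21 (SE, n = 7 pairs), 4.49 times lower with Epo, at a limma adjusted p of 1.33e-05. It widened from hour to hour, with differences of -1.38, -1.57, -1.71, -1.88, -2.67, -2.87 and -3.08. The slope of these differences was -0.31 ± 0.04 per hour (adjusted p = 0.00027), and Kit was the 1 gene of the 10 whose slope passed, in a test that called 7.97% of all genes toward lower and 7.25% toward higher. Over 0 to 7 h Kit fell by 0.29 ± 0.03 per hour with Epo (adjusted p = 7.63e-06), while its slope without Epo was -0.02 ± 0.03 (adjusted p = 0.70). Relative to its own 0 h array it was 3.98 times lower with Epo at 7 h and 1.24 times lower without.

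The second Kit probe set, 1415900_a_at, shared the difference but not its widening. Its values with Epo were 5.50, 4.79, 4.49, 4.66, 4.36, 4.09, 3.55 and 4.39 at 0 to 7 h, against 6.90, 6.47, 6.64, 6.29, 6.56, 6.21, 6.38 and 6.26 without. The difference was -1.39 at 0 h and -2.07 ± 0.14 at 1 to 7 h (adjusted p = 1.13e-06), with a slope of -0.09 ± 0.06 per hour (adjusted p = 0.45). It fell with Epo by 0.18 ± 0.04 per hour (adjusted p = 0.021), and its slope without Epo was -0.07 ± 0.03 (adjusted p = 0.080).

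Of 18 KIT ligand and signalling genes, 8 were lower with Epo at 1 to 7 h, 1 was higher and 9 did not pass. Their median was -0.27, and over all genes 20.2% were called lower and 18.2% higher. At 0 h, 16 of the 18 were already lower, against 51.6% of all genes, with a median of -0.36. Pik3r1, a regulatory subunit of PI3-kinase, differed by -1.64 ± 0.16 (adjusted p = 1.75e-05), after -0.80 at 0 h. Fyn, a SRC family kinase, differed by -0.74 ± 0.13 (adjusted p = 0.0010), after -0.49 at 0 h. Neither difference passed when set against 0 h, nor did any other gene of the 18.

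Promoters of Kit, Myb and Cd34 are printed because these 3 genes fell with Epo both within 7 h and later. Each is the 250 bases before the transcription start, from RefSeq on GRCm38.p6, written 5′ to 3′ on the gene's strand, and capitals mark motif matches on either strand. For GATA factors the letters searched were AGATAA, together with AGATAG, together with TGATAA, together with TGATAG. For RUNX factors they were TGTGGT, and for ETS factors CGGAAG together with AGGAAG.
Kit, chr5:75574737-75574986, plus strand: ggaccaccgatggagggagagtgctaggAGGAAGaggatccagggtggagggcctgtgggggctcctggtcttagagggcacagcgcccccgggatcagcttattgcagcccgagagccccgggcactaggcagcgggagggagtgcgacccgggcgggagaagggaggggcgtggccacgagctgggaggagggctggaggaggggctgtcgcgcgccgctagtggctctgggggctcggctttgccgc
Myb, chr10:21160985-21161234, minus strand: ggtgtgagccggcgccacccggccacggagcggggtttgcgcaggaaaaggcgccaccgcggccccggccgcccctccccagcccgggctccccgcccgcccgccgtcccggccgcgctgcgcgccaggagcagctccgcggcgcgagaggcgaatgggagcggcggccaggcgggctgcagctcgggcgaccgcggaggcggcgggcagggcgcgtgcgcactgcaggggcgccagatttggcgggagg
Cd34, chr1:194938571-194938820, plus strand: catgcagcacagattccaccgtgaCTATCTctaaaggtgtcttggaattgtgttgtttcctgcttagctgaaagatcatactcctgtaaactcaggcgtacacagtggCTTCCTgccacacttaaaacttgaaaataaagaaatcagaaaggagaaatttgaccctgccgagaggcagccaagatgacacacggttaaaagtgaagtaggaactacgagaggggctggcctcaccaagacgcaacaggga

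The Kit window held 1 ETS match, at -222 from the start, and the Cd34 window held 1 GATA match at -226 and 1 ETS match at -142. None of the letters searched was found in the Myb window, which was 81.2% G or C, against 70.8% for Kit and 46.4% for Cd34. For 8 of the 10 genes the promoter table held 13 starts, of which 3 had a GATA match, 1 a RUNX match and 7 an ETS match. Kit has overlapping starts that share the same ETS match, so that site counts more than once among the 7. Among all 32851 promoters of the table, 26.5% had a GATA, 14.0% a RUNX and 39.2% an ETS match. These matches describe letters and not bound sites.

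Myb, the transcription factor of cycling progenitors, declined in both series. With Epo it had 9.81, 9.62, 8.68, 8.83, 8.87, 8.67, 8.64 and 8.37 at 0 to 7 h, then 7.93, 6.82, 6.36 and 5.19 at 8, 14, 19 and 24 h. Without Epo it had 10.75, 10.49, 9.72, 9.22, 9.19, 9.10, 9.07 and 8.91 at 0 to 7 h. In every pair the array with Epo was the lower one, although the ranges of the series overlapped.

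At 1 to 7 h Myb was lower by -0.57 ± 0.10 (SE, n = 7 pairs, limma adjusted p = 0.0011), less than the -0.94 of 0 h. Without hour as a block the same difference had an adjusted p of 0.054. Myb fell in both series, by 0.18 ± 0.03 per hour with Epo (adjusted p = 0.0036) and by 0.26 ± 0.04 per hour without (adjusted p = 0.00034). The change of its difference, 0.08 ± 0.04 per hour, did not pass (adjusted p = 0.26). By 7 h the change from its own 0 h was -1.44 with Epo and -1.84 without.

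The other 2 Myb probe sets differed more than the chosen one, whose suffix _x_at marks probes that can also match other transcripts. Probe set 1450194_a_at had -1.46 at 0 h and -1.12 ± 0.12 at 1 to 7 h (adjusted p = 1.91e-05). Probe set 1422734_a_at had -1.64 at 0 h and -1.31 ± 0.13 at 1 to 7 h (adjusted p = 1.42e-05). All 3 fell in both series over 0 to 7 h.

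Of 9 genes of the MYB family, its coactivators and genes linked to it, 6 were lower with Epo at 1 to 7 h and 3 did not pass. None was higher, and the median was -0.76, where 20.2% of all genes were called lower and 18.2% higher. With a median of -0.38, 7 of the 9 were already lower at 0 h, as were 51.6% of all genes. Zbtb7a, a repressor of fetal globin genes in human cells, differed by -1.43 ± 0.20 (adjusted p = 0.00019), after -0.38 at 0 h. Cebpb, a leucine zipper factor of myeloid cells, differed by -1.18 ± 0.12 (adjusted p = 2.57e-05), after -0.39 at 0 h. In contrast to Myb, 6 of these 9 genes rose over time without Epo and 1 fell, where the whole array had 13.3% rising and 15.4% falling.

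Gata2 had its largest difference at 0 h. With Epo it had 5.84, 6.15, 6.10, 6.00, 6.18, 5.98, 6.13 and 5.96 at 0 to 7 h, and 5.80, 5.59, 5.68 and 5.58 at 8, 14, 19 and 24 h. Without Epo it had 6.99, 6.91, 6.17, 6.36, 6.22, 6.32, 6.17 and 6.27. From 2 h on the matched differences lay between -0.36 and -0.04, the 2 arrays at 0 and 1 h without Epo being the high ones.

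The mean difference of Gata2 at 1 to 7 h, -0.27 ± 0.11, did not pass (limma adjusted p = 0.060), though all 7 pairs were lower with Epo. It passed when only brighter genes were fitted (adjusted p = 0.037), without the variance trend (0.044) or with linear time in place of the block (0.027). All 7 later arrays were above 0 h with Epo, by 0.11 to 0.34, and all 7 were below 0 h without, by 0.08 to 0.82. The test of this opposition is the step from 0 h given above, which did not pass. Gata2 fell without Epo by 0.10 ± 0.03 per hour (adjusted p = 0.040), but over 1 to 7 h alone the slope was -0.07 (adjusted p = 0.23). Its slope with Epo was 0.01 ± 0.03 (adjusted p = 0.94). The second probe set, 1428816_a_at, differed by -0.48 at 0 h and by 0.01 ± 0.11 at 1 to 7 h (adjusted p = 0.95).

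Partners of the GATA switch, a list of cofactors and neighbouring factors of GATA1 and GATA2, were lower with Epo in 11 of 12 genes. That call was made at 1 to 7 h, for 20.2% of all genes, and the median of the 12 was -0.54. At 0 h, 11 of the 12 were already lower, against 51.6% of all genes, with a median of -0.41. Gfi1b, a repressor needed for red cells, differed by -1.58 ± 0.13 (adjusted p = 5.45e-06) after only -0.15 at 0 h. On single arrays it was between 9.51 and 10.55 with Epo at 1 to 7 h, and between 10.25 and 12.09 without. Ldb1, the bridging factor of the complex, differed by -1.46 ± 0.11 (adjusted p = 3.53e-06), after -0.51 at 0 h. None of the 12 passed when set against 0 h. Of 8 erythroid identity genes 5 were lower with Epo and none was higher, against 20.2% and 18.2% of all genes. Among the 5 were Gata1 at -0.72 ± 0.08 (adjusted p = 3.83e-05) and Epor, the Epo receptor, at -0.89 ± 0.14 (adjusted p = 0.00052). Their 0 h differences were -0.24 and -0.39. Of the 8 genes 6 were already lower at 0 h, against 51.6% of all genes, with a median of -0.22.

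Cd34, a surface sialomucin of stem and early progenitor cells, had the largest 0 h difference. With Epo its values were 4.05, 3.41, 3.49, 3.19, 3.11, 2.91, 2.51 and 2.57 at 0 to 7 h, and 3.06, 2.13, 2.66 and 2.54 at 8, 14, 19 and 24 h. Without Epo they were 5.82, 5.16, 4.98, 3.29, 3.91, 3.63, 3.82 and 3.63. The first 3 arrays without Epo stood above all others, and at 3 h the series differed by only -0.10.

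Over 1 to 7 h Cd34 was lower with Epo by -1.03 ± 0.16 (n = 7 pairs, limma adjusted p = 0.00041), against -1.78 at 0 h. As no detection calls were used, whether its values with Epo lay above background was not tested, and no fold is given. It fell in both series over 0 to 7 h, by 0.20 ± 0.03 per hour with Epo (adjusted p = 0.00023) and by 0.30 ± 0.07 without (adjusted p = 0.0044). The change of the difference was 0.07 ± 0.07 per hour and did not pass (adjusted p = 0.69). Of 20 other stem and progenitor genes, 4 were lower with Epo and 3 higher, with a median of 0.03. That is near all genes, of which 20.2% were lower and 18.2% higher, so this list did not stand apart. Ikzf1, a zinc finger factor of lymphoid and early blood cells, differed by -0.59 ± 0.08 (adjusted p = 0.00015), and Cd48, a SLAM family surface protein, by 0.89 ± 0.11 (adjusted p = 9.91e-05), after -0.67 and 0.74 at 0 h.

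**Figure D3:**
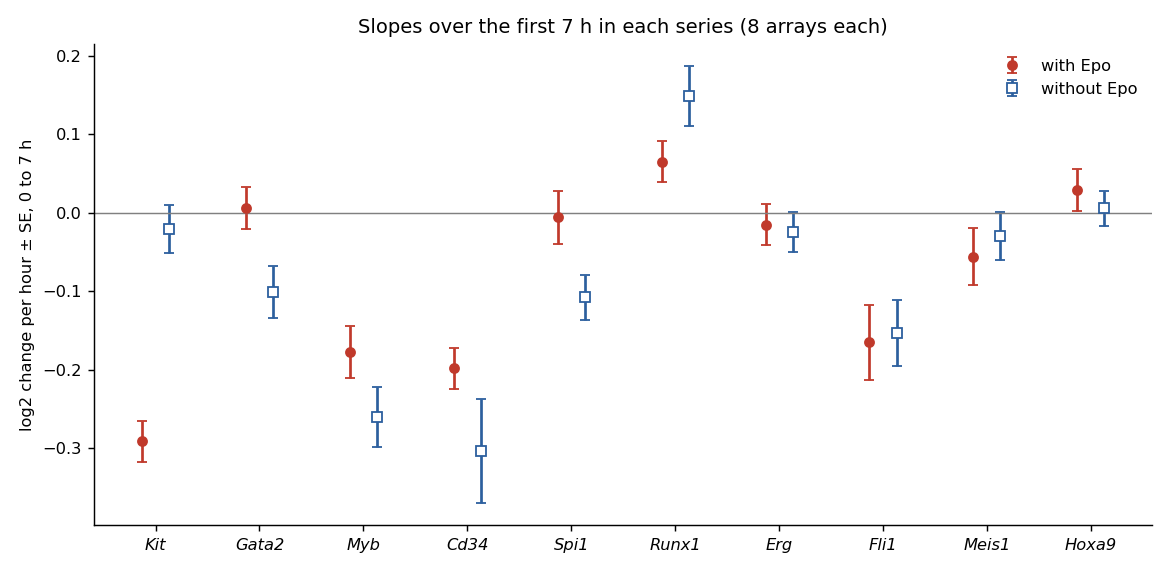
Log2 change per hour over 0 to 7 h with its SE (8 arrays each), with Epo (filled circles) left of without Epo (open squares). Kit has the steepest slope with Epo, at -0.29, and one near 0 without, while Cd34 and Myb slope down in both series.

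Over 0 to 7 h without Epo, 5 of the 10 genes fell (Cd34, Myb, Fli1, Spi1 and Gata2) and Runx1 rose, against 15.4% and 13.3% of all genes. With Epo 4 fell (Kit, Cd34, Myb and Fli1) and none rose, against 5.88% and 2.21% of all genes, and only Runx1 had a positive slope at an unadjusted p under 0.05. A slope that passed in 1 series and not in the other was set against the slope of the matched differences. That slope covers 1 to 7 h and so leaves out the 0 h arrays, and only that of Kit passed. With the 0 h pair included, Kit was again the 1 gene of the 10 that passed (limma adjusted p = 0.00016).

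Runx1 encodes the DNA-binding subunit of core binding factor, needed for the first blood stem cells. With Epo it had 6.63, 6.67, 6.58, 6.96, 7.07, 6.89, 7.02 and 7.01 at 0 to 7 h, and 6.88, 6.59, 6.68 and 6.80 at 8, 14, 19 and 24 h. Without Epo it had 6.29, 6.79, 7.43, 7.36, 7.49, 7.45, 7.64 and 7.44. By its chosen probe set Runx1 was the only gene of the 10 to be higher with Epo at 0 h, and it was lower with Epo at each later hour. At 0 h probe sets 1452530_a_at and 1452531_at were also higher, by 0.17 and 0.23. The other probe sets were lower there, at -0.64 for 1422865_at, -0.69 for 1422864_at and -0.29 for 1440878_at.

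The mean Runx1 difference at 1 to 7 h was -0.49 ± 0.10 (limma adjusted p = 0.0027), against 0.33 at 0 h. It rose without Epo by 0.15 ± 0.04 per hour (adjusted p = 0.012), and without the 0 h array by 0.09 per hour, which did not pass (adjusted p = 0.10). With Epo the slope was 0.07 ± 0.03 (adjusted p = 0.16). The 6 Runx1 probe sets disagreed. Those below 0 that passed were -0.49 for 1427650_a_at, -0.58 for 1452530_a_at, -0.85 for 1422864_at and -1.28 for 1422865_at, while 1452531_at had 0.17 and 1440878_at 0.06, neither passing. The list of RUNX factors, core binding factor and a kinase acting on RUNX1 had 3 other genes measured. Of these 2 were higher with Epo at 1 to 7 h and 1 was lower, against 18.2% and 20.2% of all genes. Cbfb, the partner subunit, differed by -0.45 ± 0.11 (adjusted p = 0.0053), after -0.57 at 0 h. Hipk2, a kinase that phosphorylates RUNX1, differed by 0.41 ± 0.14 (adjusted p = 0.033), after -0.74 at 0 h.

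**Figure D4:**
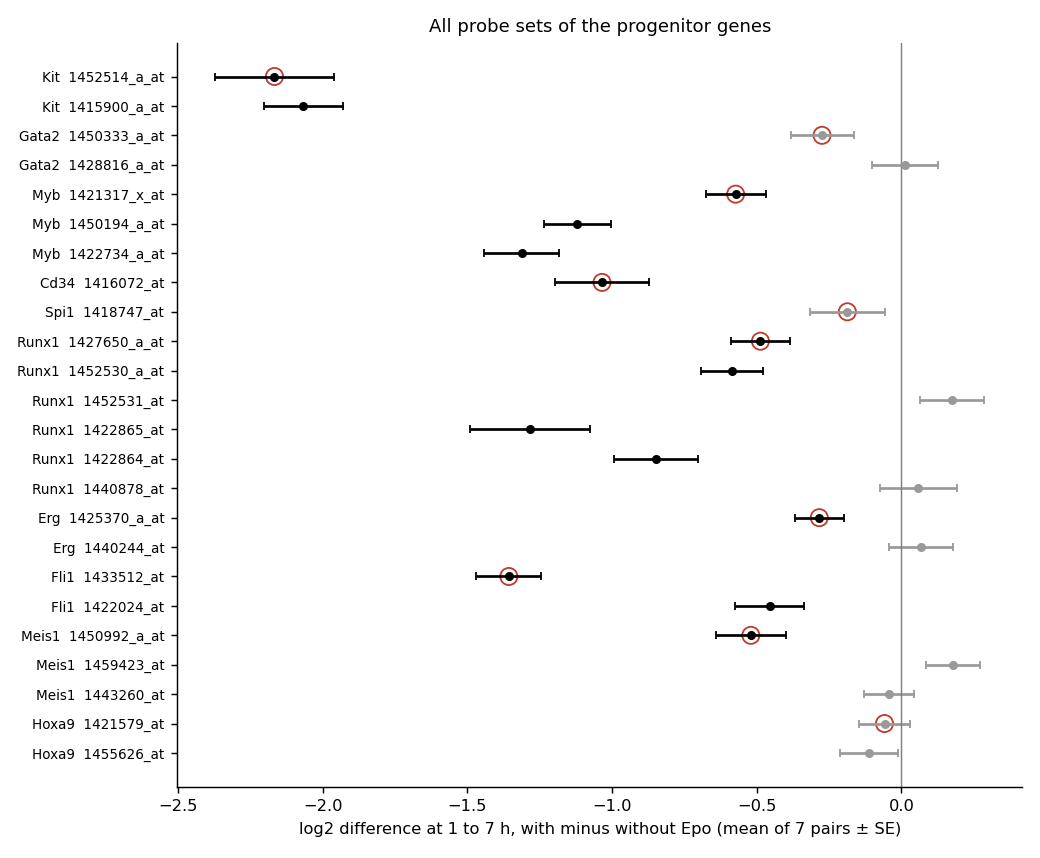
Mean log2 difference with minus without Epo at 1 to 7 h with its SE (7 pairs) for all 24 probe sets, dark where the adjusted p was under 0.05 and ringed where the probe set represents its gene. Both Kit and all 3 Myb probe sets are dark and below 0, while those of Runx1, Erg and Meis1 lie on both sides of 0.

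Fli1, Erg and Spi1 are ETS factors; FLI1 and ERG serve stem cells and megakaryocytes, and SPI1 (PU.1) drives myeloid fate and is opposed by GATA1. Fli1 had 4.10 with Epo at 0 h and 2.67, 2.81, 2.55, 2.42, 2.57, 2.36 and 2.47 at 1 to 7 h, then 2.20 to 2.53 at 8 to 24 h. Without Epo it had 4.92 at 0 h and 3.79, 4.32, 4.11, 4.24, 3.81, 3.85 and 3.24 at 1 to 7 h. The change in the first hour was -1.43 with Epo and -1.13 without, and the series did not overlap afterwards.

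The Fli1 difference at 1 to 7 h was -1.36 ± 0.11 (limma adjusted p = 5.27e-06), against -0.82 at 0 h. Whether its values with Epo, all under 3 after 0 h, lay above background was not tested, so no fold is given. Its second probe set, 1422024_at, differed by -0.46 ± 0.12 (adjusted p = 0.0097). Its fall of 0.17 ± 0.05 per hour with Epo (adjusted p = 0.048) rested on the 0 h array: over 1 to 7 h the slope was -0.05 (adjusted p = 0.36). Without Epo it fell by 0.15 ± 0.04 per hour (adjusted p = 0.017), and by 0.10 without the 0 h array (adjusted p = 0.14).

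Erg was between 3.96 and 4.23 with Epo at 1 to 7 h and between 4.24 and 4.67 without, a small difference of -0.28 ± 0.08 (adjusted p = 0.013), against -0.18 at 0 h, that the second probe set, 1440244_at, did not share (0.07 ± 0.11, adjusted p = 0.68). With both probe sets averaged the Erg call was lost (-0.11, adjusted p = 0.30). Spi1 ranged over 4.74 to 5.48 with Epo and 4.91 to 5.76 without, and its difference of -0.19 ± 0.13, against -0.62 at 0 h, did not pass (adjusted p = 0.28). Spi1 was lower with Epo at 1 to 5 h and higher at 6 and 7 h. Without Epo it fell by 0.11 ± 0.03 per hour (adjusted p = 0.013), and without the 7 h array that slope was -0.09 (adjusted p = 0.098). The change of the Spi1 difference, 0.10 ± 0.06 per hour, did not pass (adjusted p = 0.30). Among 13 other ETS genes 6 were lower with Epo at 1 to 7 h, none was higher and 7 did not pass, with a median of -0.35. Of all genes 20.2% were called lower and 18.2% higher. These ETS genes were already lower at 0 h in 11 of 13 cases, against 51.6% of all genes, with a median of -0.28. Elf1 differed by -1.35 ± 0.15 (adjusted p = 4.49e-05) and Etv3, a repressor, by -1.34 ± 0.14 (adjusted p = 2.74e-05), after -0.80 and -0.79 at 0 h.

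Meis1 and Hoxa9 encode homeodomain partners that keep stem cells renewing and drive leukaemia when overexpressed. Meis1 had 4.39, 3.80, 3.84, 3.89, 4.12, 3.36, 3.92 and 3.81 with Epo at 0 to 7 h, against 4.61, 4.07, 4.51, 4.47, 4.34, 4.61, 4.33 and 4.05 without. It was lower with Epo in all 7 pairs, by -0.52 ± 0.12 (adjusted p = 0.0047) against -0.21 at 0 h, with the 5 h array with Epo lowest. Its other probe sets, 1459423_at and 1443260_at, differed by 0.18 ± 0.09 and -0.04 ± 0.09 and did not pass, and the mean of the 3 gave -0.13 (adjusted p = 0.16). Hoxa9 was 5.61 to 5.96 with Epo and 5.82 to 6.01 without at 1 to 7 h, with a difference of -0.06 ± 0.08 (adjusted p = 0.62), against -0.11 at 0 h, and lower values with Epo in 4 of 7 pairs.

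Among 14 related HOX, PBX and MEIS genes and their partners 3 were lower with Epo, 2 were higher and 9 did not pass, with a median of 0.08. These counts are near the shares of all genes, 20.2% lower and 18.2% higher. Pbx3 and Pbx2, homeodomain cofactors of HOX proteins, differed by -0.71 ± 0.14 (adjusted p = 0.0016) and -0.57 ± 0.10 (adjusted p = 0.00088), after -0.20 and -0.64 at 0 h. Over all 24 probe sets of the 10 genes, 14 were lower with Epo, none was higher and 19 estimates were below 0. The share called among all 34945 probe sets was not taken, while among genes it was 20.2% lower and 18.2% higher. Probe sets of the same gene are also not independent of each other. Cd34, Erg, Fli1 and Meis1 had mean values under 5, where small differences of a probe set are least certain.

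From 8 h on there were arrays with Epo only, so the late hours 14, 19 and 24 were set against 1 to 8 h within that series. Of the 10 genes 4 were lower late, Myb, Kit, Cd34 and Gata2, and none was higher, against 18.5% and 17.6% of all genes. For Myb, Kit and Gata2 all 3 late arrays lay below all 8 earlier ones, as in 14.3% of all genes. Hours with Epo and hours in culture cannot be told apart there. Against 6 to 8 h alone, Myb was the 1 gene of the 10 that passed.

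Myb had the largest late change, at -2.58 ± 0.32 (SE, 3 against 8 arrays, limma adjusted p = 4.91e-05), 5.97 times lower. At 24 h it stood 24.5 times below its own 0 h array. The other 2 Myb probe sets changed by -2.61 ± 0.33 and -2.42 ± 0.31. Kit changed by -1.55 ± 0.35 (adjusted p = 0.0031) and stood at -3.08, -3.39 and -2.13 from its 0 h array at 14, 19 and 24 h. Its second probe set had a late change of -0.28 ± 0.21 that did not pass (adjusted p = 0.34).

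Gata2 changed by -0.42 ± 0.12 (adjusted p = 0.014), and by -0.31 with quantile normalization (adjusted p = 0.061), and Cd34 by -0.59 ± 0.19 (adjusted p = 0.028). The Cd34 call was lost without the 14 h array (-0.43, adjusted p = 0.13) and without the 24 h array (-0.64, adjusted p = 0.059). Meis1 had -0.35 ± 0.15 (adjusted p = 0.076), Fli1 -0.20 ± 0.11 (0.15) and Runx1 -0.19 ± 0.14 (0.28), none of which passed. Spi1 at 0.26 ± 0.16, Hoxa9 at 0.22 ± 0.15 and Erg at 0.00 ± 0.14 had no lower late mean. A pair of Runx1 probe sets passed in opposite directions, 1452530_a_at at 0.64 ± 0.13 (adjusted p = 0.0015) and 1422864_at at -0.70 ± 0.25 (adjusted p = 0.044), and the dimmest Meis1 probe set, 1443260_at, was higher late by 0.48 ± 0.16 (adjusted p = 0.032).

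**Figure D5:**
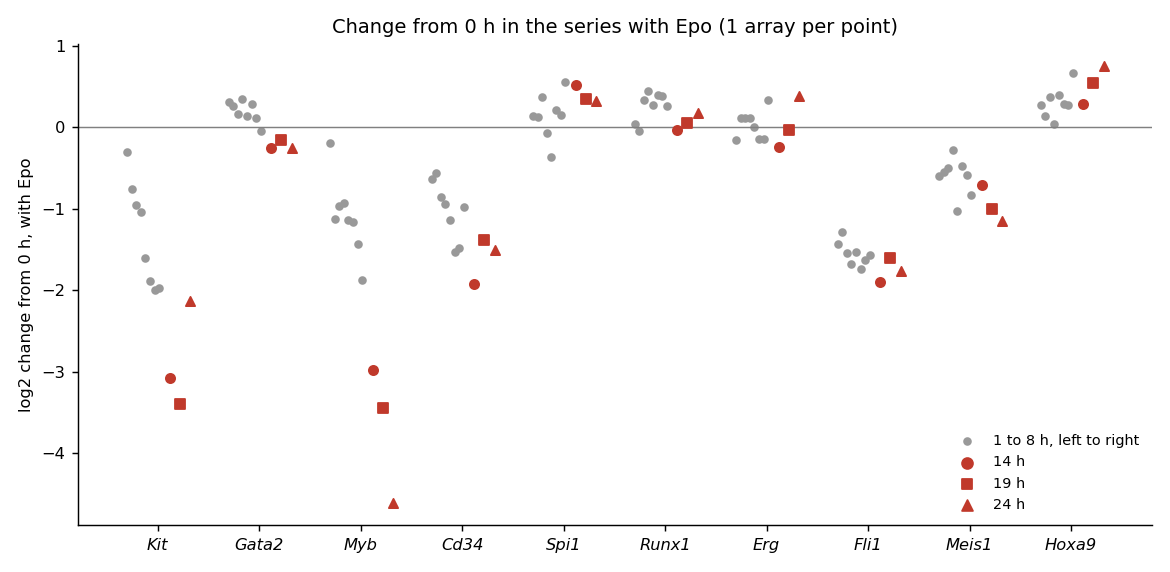
Log2 change from the 0 h array in the series with Epo, with 1 point per array, grey for 1 to 8 h and red for 14, 19 and 24 h. Myb reaches -4.61 at 24 h, Kit -3.39 at 19 h, and Spi1 and Hoxa9 stay at or above 0 late.

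Other markers moved in the same late hours, in which 17.6% of all genes were called higher and 18.5% lower. Megakaryocyte markers summed to 529 to 616 late, and to 298 to 366 at 0 to 7 h with Epo. Of these 10 markers 4 were higher late and none lower. Most of the rise in their sum was in Pf4, a platelet chemokine, which was higher late by 2.03 ± 0.23 (limma adjusted p = 3.40e-05). Macrophage markers summed to 252 to 280 late and to 157 to 193 at 0 to 7 h with Epo, and 4 of 13 were higher late and none lower. Granulocyte markers summed to 619 to 784 late and to 379 to 669 at 0 to 7 h with Epo, with 5 of 12 higher and 3 lower. Among them S100a8 was 7.93 to 8.45 late and 5.47 to 7.02 at 0 to 7 h, and S100a9 7.49 to 7.73 and 5.16 to 6.68. Mpo and Prtn3 went the other way, at 4.16 to 5.33 and 4.67 to 5.24 late. At 0 to 7 h with Epo they had 5.96 to 7.62 and 5.74 to 6.75. Of the lymphoid markers 3 of 11 were higher late, of the mast cell markers 2 of 8 and of the endothelial markers 2 of 10, with none lower. These small counts lie near the share of all genes called higher, and most of these markers averaged under 5. Hepatocyte markers summed to 425 to 2419 late, with 8 of 10 lower and a median of -3.06. Of 8 erythroid identity genes 6 were higher late and none lower, with a median of 0.48. The 24 h array had an SD over genes of 2.42, against 2.55 to 2.69 on the others. The part of these shifts in the late values was not tested.

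The members varied together to different degrees. Across the 20 arrays, which share their hours and series, Pearson's r was 0.86 between Kit and Fli1, 0.81 between Kit and Cd34, 0.81 between Gata2 and Myb and 0.79 between Kit and Myb. After each series was centred on its own mean these became 0.52, 0.58, 0.73 and 0.77. Hoxa9 ran against Myb, at -0.65 over the 20 arrays and -0.69 within series. Spi1 had 0.00 with Kit over the 20 arrays and -0.35 within series.

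Genes with the most similar pattern were taken from all genes brighter than the median gene. Closest to Kit were Igsf3 (r = 0.97), Nelfb (0.95) and Arap3 (0.95), with 0.91, 0.81 and 0.90 within series. Those closest to Myb were Wdr5, Marcksl1 and Colgalt1, each at 0.98, with 0.97, 0.97 and 0.98 within series. For Gata2 they were Eif4b, Zbed4 and Alyref, each at 0.87, with 0.73, 0.74 and 0.72 within series. As a case, Marcksl1 had 7.40, 6.52 and 4.48 with Epo at 0, 7 and 24 h, and 7.80 and 7.08 without at 0 and 7 h. All these correlations are descriptions over 20 arrays.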

How the data were processed

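RNA of 20 samples was labelled as biotinylated cRNA and hybridised to Affymetrix arrays, 1 per sample. The deposited values ran from 1.37 to 14.6 and were taken as log2. The authors' summary and normalization steps and their software are not given in the sources used here. Of 45101 probe sets, 34945 named 1 gene in the platform annotation and were used, 13 named 1 gene but were among the 64 control probe sets and were left out, 932 named several, and 9211 were unnamed here; 34741 were found by Entrez ID in the RefSeq gene table, and no symbol changed. The 10 genes and all gene lists were chosen with earlier results of these data known.

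The difference at 1 to 7 h (14 arrays, hour as a block), the step from 0 h, the slope of the matched differences, the slopes in each series and the late comparison were fitted over all 18193 genes with limma 3.58.1 (empirical Bayes with intensity trend) in R 4.3.3, with Benjamini-Hochberg adjustment over all genes and calls at an adjusted p under 0.05. The fits were tested on simulated data. Names followed a rule: all 10 genes, at most the 2 genes per list with the largest difference at 1 to 7 h, and the 3 most similar genes for Kit, Gata2 and Myb. The number of arrays limits the precision. Alternatives covered normalization, brightness, probe sets, block, trend, hours and left-out arrays; fitting each probe set on its own was added after the data were seen. Promoters came from a RefSeq table on GRCm38.p6, which gave no entry for Fli1 and Spi1. Tables and plots were made in Python 3.11.15 (matplotlib 3.10.9, numpy 2.4.6, pandas 2.3.3).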

Additional observations from a re-analysis of the deposited data

Results flagged for a closer look

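The difference of Meis1 with minus without Epo was -1.25 at 5 h, apart from the other 6 hours, in a set of 7 whose median was -0.41. The gap to its nearest neighbour took 0.569 of the range of the 7 hours. Of 20 such sets of values, chance flags about 1 in 20.

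The difference of Kit between the series changed by -0.31 per hour over 1 to 7 h (limma adjusted p = 0.00027), so its course with Epo differed from that without. Its second probe set did not show this, at -0.09 per hour (adjusted p = 0.45).

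Gata2 lay above its own 0 h array at all 7 later hours with Epo and below it at all 7 without. The step was 0.87 on the log2 scale, and its test did not pass (limma adjusted p = 0.56).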

How the results depend on the processing

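Of 866 values of the 10 genes under alternatives, 824 stayed on their side of the threshold (among them 33 without a call that changed sign), 33 lost a call, 6 gained one and 3 turned. Those 3 were the differences at 1 to 7 h with probe sets without suffix, which gave 0.17 for Runx1, 0.067 for Erg and 0.18 for Meis1. In place of 7 genes called there, 4 of 6 fitted were called among brighter genes (Kit, Myb, Runx1 and, beyond the 7, Gata2). Cd34, Erg, Fli1 and Meis1 were too dim to be fitted there. With probe sets without suffix 4 of 10 were called (Kit, Myb, Cd34 and Fli1). All 4 kept their probe set in that setting, so it did not test their calls. Kit and Myb had no probe set without suffix, and those chosen for Cd34 and Fli1 already lacked one. Over time without Epo 6 called genes became 3 over 1 to 7 h, and 3 to 6 with each hour left out in turn, the 3 being without the 0 h array. Over time with Epo 4 became 2 of 6 among brighter genes. The late comparison went from 4 genes to 1, Myb, against 6 to 8 h, where Kit had -0.92 (limma adjusted p = 0.053), and over all genes from 3207 higher and 3372 lower to 1045 and 1851. With a linear drift allowed, the step from 0 h called 244 genes higher and 434 lower in place of 3 and 9, none of them among the 10: Gata2 had an adjusted p of 0.096, Kit 0.099 and Runx1 0.10. The slope of the Kit difference was between -0.34 and -0.20, and passed, under the alternatives fitted per gene, but was -0.09 (adjusted p = 0.45) for its second probe set on its own. The labels number no replicates, so no paired fit beyond hour as a block could be made.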
